A study of Mus musculus with 149 samples.

Results

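The interleukins and interleukin receptors described here are the 38 genes whose symbol begins with Il and a digit, other than Il4, Il5, Il13, Il4ra, Il13ra1, Il13ra2, Il33, Il17rb, Il7r, Il18, Il1b and Il1rn. The rule uses symbols and no measured values. The arrays measured 50 such symbols among 13494 genes, and the rule left out 12. A gene with several probe sets (12 of the 38) is represented by the one with the highest mean over all arrays. The lowest correlations over the arrays between probe sets of a gene were -0.19 for Il1rap, -0.14 for Il6ra and 0.052 for Il10ra. They were 0.11 for Il6st, 0.15 for Il16 and 0.20 for Il17re. Values below hold for the probe set used, unless another is named. All 38 were kept in every comparison, because no filter on dim probe sets was applied, although 23 of them lie below the 40th percentile of mean level.

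Interleukins are secreted proteins through which leukocytes, epithelium and stroma signal to each other, and most act through a receptor of paired chains on the target cell. Much of the IL-1 family signals through Il1r1 or related receptors paired with the accessory protein Il1rap, while IL-18 uses Il18r1 with Il18rap. The IL-17 family signals through Il17ra paired with Il17rc, Il17rd or Il17re, and the IL-10 and IL-22 group through Il10ra, Il10rb, Il20rb and Il22ra1. The IL-6 and IL-12 families signal through Il6st and its relatives. The common gamma chain family includes Il2ra, the chain that gives the IL-2 receptor its high affinity and that is abundant on regulatory and activated T cells. Thymic stromal lymphopoietin (TSLP) is an epithelial cytokine, itself close to IL-7, that acts on dendritic cells, T cells and innate lymphoid cells and is known for its part in allergic airway inflammation.

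The arrays hold RNA from whole lungs of BALB/c mice, with 1 animal per array. Mice were either naive or sensitized with ovalbumin (OVA), were then given saline, buffer alone (labelled 0.1% MSA, an unexpanded abbreviation), or TSLP at 150, 500 or 1500 ng, and were killed 6 or 24 h later. Each of the 20 combinations holds 6 to 8 arrays: 12 groups hold 8, 5 hold 7 and 3 hold 6. The sources used here do not give the age of the animals, the route of the challenge or the sensitization schedule. Replicates are separate animals, so a p-value covers the spread between animals, and in whole lung fewer cells of a type and less RNA per cell cannot be told apart.

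Values are log2 expression made by robust multi-array averaging (RMA), and they carry no counts. The 7 lung epithelium markers averaged 12.2 to 12.9 on every array. The difference between the 3' and the 5' probe sets of beta-actin, a gauge of RNA integrity and labelling, averaged 1.26 to 2.57 in the 6 h groups and 1.25 to 1.60 in the 24 h groups. It was 1.31 lower in OVA mice at 6 h after 1500 ng of TSLP than after buffer (exact permutation test, two-sided, adjusted p = 0.000622 over 8 comparisons), so the main results at 6 h are also given with that measure as a covariate. Krt4 and Krt13, keratins of the gullet (oesophagus), were both more than 2 log2 units above their medians on 6 arrays. At 6 h these were replicates 4 and 6 of the naive buffer group, 7 of OVA buffer, 5 of naive mice given 150 ng and 7 of OVA mice given 1500 ng, and at 24 h replicate 8 of naive buffer. Calls lost without those arrays are named for 1500 ng of TSLP against buffer and for OVA against naive mice after buffer. They are also named for the difference of the TSLP effect between OVA and naive mice. In the other comparisons not every lost call is named. At 500 ng in OVA mice at 6 h, for example, 13 of the 15 calls were kept.

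RefSeq promoters (GRCm38.p6) were matched to 26 of the 38 genes. The 250 bases before a transcript start are shown for 3 genes that rose after TSLP and whose window holds a searched motif, and for Il2ra, which rose too and holds neither motif. TTCNNNGAA is the form bound by STAT proteins, which carry signals from TSLP and many interleukin receptors, and TGANTCA is the form bound by AP-1; both were searched on both strands, which for these palindromes read alike, and they do not overlap. Each sequence is printed 5′ to 3′ on the gene's strand, with a matching motif in capitals.
Il1f9, chr2:24186226-24186475, plus strand: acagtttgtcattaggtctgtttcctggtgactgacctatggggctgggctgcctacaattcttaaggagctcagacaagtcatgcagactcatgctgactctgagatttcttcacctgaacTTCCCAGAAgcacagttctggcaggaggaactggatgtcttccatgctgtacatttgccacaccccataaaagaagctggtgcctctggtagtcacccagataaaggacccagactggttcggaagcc
Il31ra, chr13:112580663-112580912, minus strand: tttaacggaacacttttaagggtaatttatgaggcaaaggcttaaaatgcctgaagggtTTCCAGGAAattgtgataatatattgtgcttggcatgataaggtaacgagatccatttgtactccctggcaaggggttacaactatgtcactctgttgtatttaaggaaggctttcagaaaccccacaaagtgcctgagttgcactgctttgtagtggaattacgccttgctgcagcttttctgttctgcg
Il1a, chr2:129309973-129310222, minus strand: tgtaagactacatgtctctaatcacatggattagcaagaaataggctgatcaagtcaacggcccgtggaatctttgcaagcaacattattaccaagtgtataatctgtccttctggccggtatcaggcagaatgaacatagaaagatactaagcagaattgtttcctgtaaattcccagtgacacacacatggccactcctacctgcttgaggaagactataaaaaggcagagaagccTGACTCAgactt
Il2ra, chr2:11642542-11642791, plus strand: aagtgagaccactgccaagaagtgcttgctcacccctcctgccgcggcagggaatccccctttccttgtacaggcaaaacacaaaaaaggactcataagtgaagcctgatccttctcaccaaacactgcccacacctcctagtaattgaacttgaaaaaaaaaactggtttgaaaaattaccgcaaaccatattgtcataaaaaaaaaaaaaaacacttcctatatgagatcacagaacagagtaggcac
Il1f9 has TTCNNNGAA starting 128 bases before its transcript start and Il31ra 191 before, while Il1a has TGANTCA 12 bases before. TTCNNNGAA was present in 7.02% of 32851 promoters, or for 8.13% of 27025 genes, and in 4 of the 26 genes matched here, the others being Il18r1 and Il1r2. TGANTCA was present in 6.75% of promoters, or for 7.82% of genes, and in 5 of the 26, the others being Il15ra, Il16, Il17a and Il22ra1. A match is a description of the letters, and the arrays do not measure binding.

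In OVA mice at 6 h, 1500 ng of TSLP raised 9 of the 38 genes and lowered 8, relative to buffer (limma, adjusted p under 0.05 over all 13494 genes). Both IL-1 ligands, Il1a and Il1f9, rose together with Il1r1 and Il1rap, while Il10ra, Il17rc, Il17re and Il3ra fell. Of all genes, 24.8% rose and 35.9% fell in this comparison, so the share of interleukin genes on either side is not above the background. The median change was -0.05 over the 38 genes and -0.06 over all genes.

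**Figure D1:**
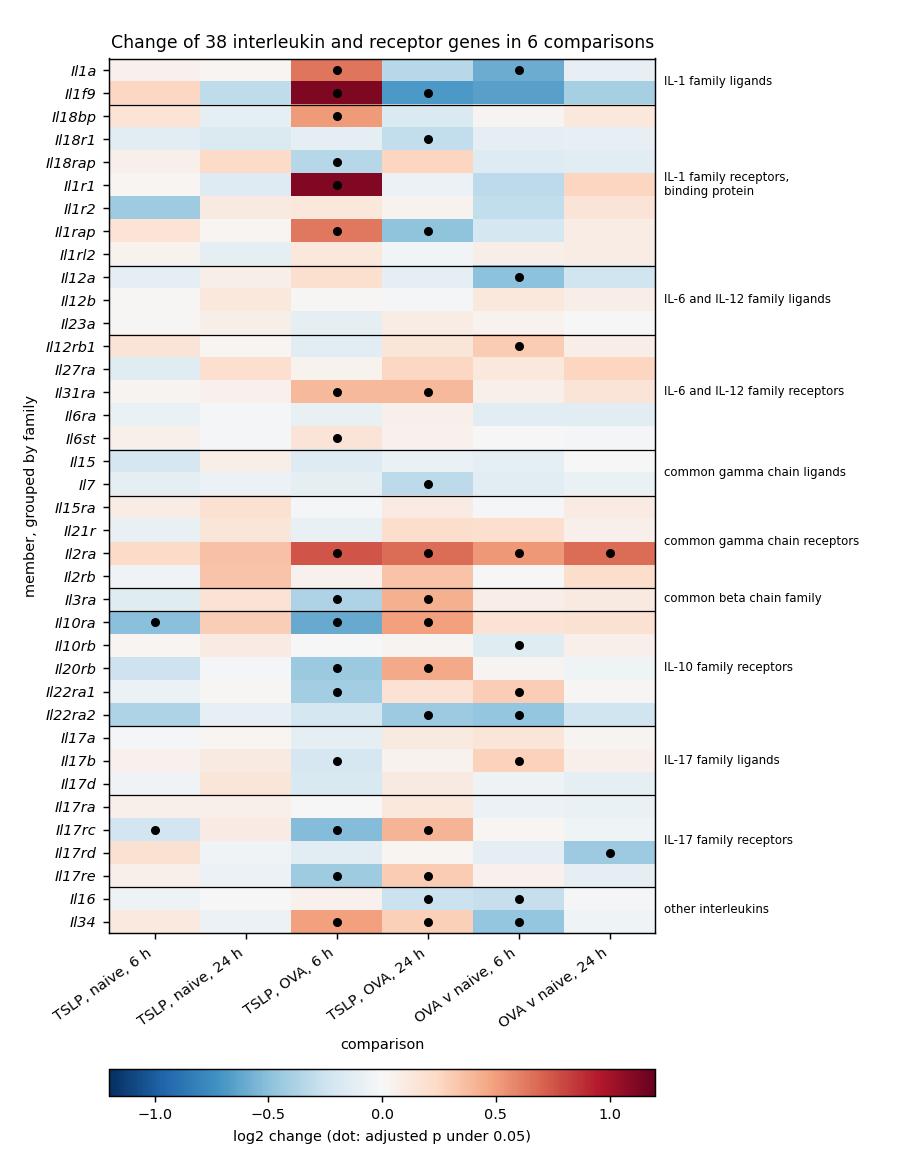
Change of each of the 38 genes (rows, grouped by family) in 6 comparisons (columns): 1500 ng of TSLP against buffer in naive and OVA mice, and OVA against naive mice after buffer, each at 6 and 24 h. Colour is the log2 change and a dot marks a limma adjusted p under 0.05; the column of OVA mice at 6 h holds 17 dots and that of naive mice at 24 h none.

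Il1r1, the receptor through which IL-1 alpha and IL-1 beta signal, had the smallest adjusted p of the 38 genes in this comparison. In OVA mice at 6 h its lowest, median and highest log2 values were 8.32, 8.45 and 8.98 after buffer and 9.21, 9.62 and 10.19 after 1500 ng of TSLP. The groups did not overlap. The change was 1.11 (SE 0.14, adjusted p = 2.57e-11), and with the beta-actin measure as a covariate it was 0.79 (adjusted p = 0.0055). Of 8 endothelium markers 5 rose and 1 fell in the same comparison, with array means of 11.18 to 11.62 after buffer and 11.63 to 11.83 after TSLP. Of 6 fibroblast and smooth muscle markers 3 rose, with array means of 11.56 to 12.34 and 12.28 to 12.39. Their part in the change of Il1r1 was not tested.

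Il2ra ran from 7.51 through a median of 7.73 to 8.78 after buffer in OVA mice at 6 h, and from 8.11 through 8.60 to 9.47 after 1500 ng. The groups overlapped, but all 8 TSLP arrays were above the buffer mean. The change was 0.75 (SE 0.17, adjusted p = 7.86e-05), and 0.73 with the beta-actin covariate (adjusted p = 0.0367). Of 9 measured T cell markers, 4 rose in the same comparison, and their mean per array ran from 8.61 to 9.51 after buffer and from 9.18 to 10.26 after TSLP. All 7 measured dendritic cell markers rose as well, from array means of 8.78 to 9.21 up to 9.39 to 9.73. Their part in the change of Il2ra was not tested.

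Il1r1 and Il2ra were the only 2 of the 17 genes called at 6 h that were still called with the beta-actin covariate, a fit in which 7.72% of all genes were called. The measure did not overlap between the groups compared, so that fit cannot separate it from TSLP. Without the arrays that carry gullet keratins, 17 of the 38 genes were called, against 59% of all genes, with Il1r1 at 1.15 and Il2ra at 0.77.

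**Figure D2:**
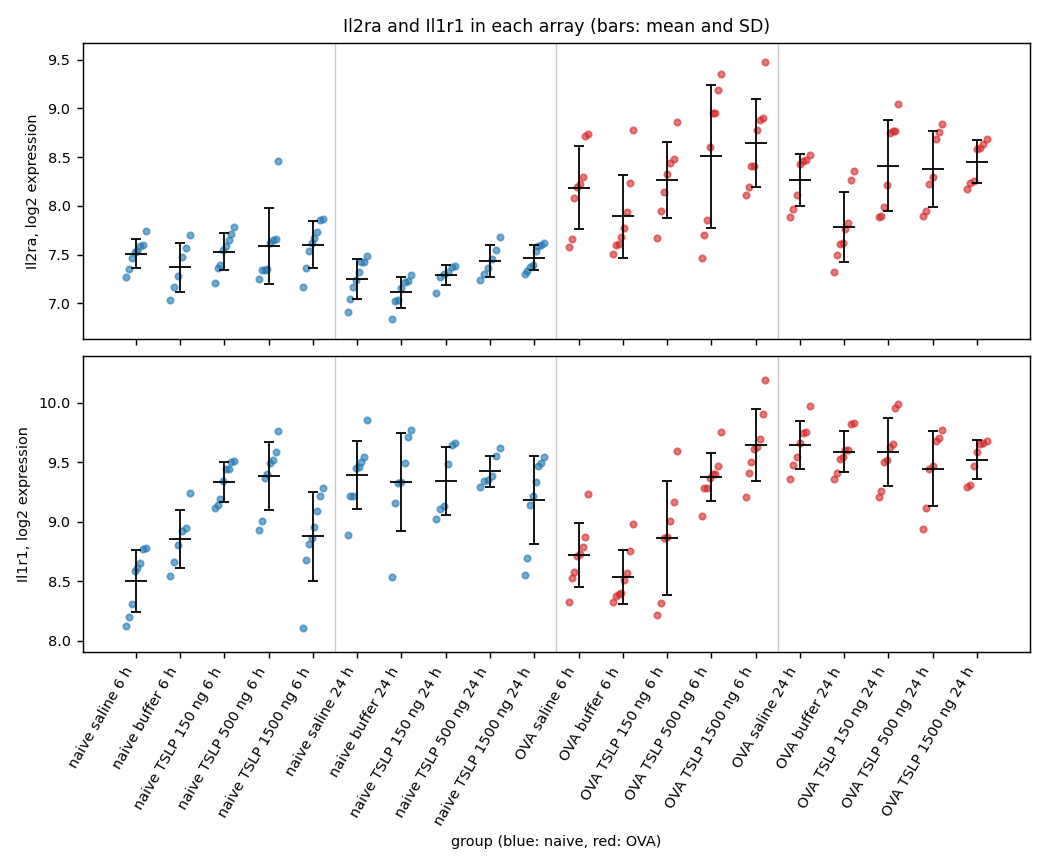
Log2 level of Il2ra and Il1r1 on every array of the 20 groups, by sensitization, challenge and time; points are animals, bars are the mean and SD, and each gene has its own axis. The group medians of Il2ra run from 7.69 to 8.78 in OVA and from 7.16 to 7.64 in naive mice, and the 6 h Il1r1 values of OVA mice after 1500 ng (9.21 to 10.19) lie above those of OVA mice after buffer (8.32 to 8.98).

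Among the other IL-1 family genes, Il1f9, which encodes the epithelial cytokine IL-36 gamma, had values of 5.07, 6.07 and 7.25 (lowest, median, highest) after buffer in OVA mice at 6 h. After 1500 ng they were 6.58, 7.25 and 7.76. The highest buffer value, on the array of replicate 7 that carries gullet keratins, reached the TSLP range; the other buffer arrays ended at 6.19. The change was 1.12 (SE 0.26, adjusted p = 0.000112) and 1.25 without the arrays with gullet keratins. With the beta-actin covariate the change was 0.10 (adjusted p = 0.886).

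Il1a, which encodes IL-1 alpha, an alarm signal released by damaged cells, had values of 5.65, 7.65 and 7.85 after buffer. After 1500 ng they were 7.59, 8.09 and 8.48. The lowest buffer value belongs to replicate 3, far below the others (7.38 to 7.85). The change was 0.64 (adjusted p = 0.000226), and it fell to 0.39 (adjusted p = 0.0120) without that array and to 0.51 (adjusted p = 0.117) with the beta-actin covariate.

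Il1rap, the shared signalling chain of the IL-1 receptors, rose by 0.63 (SE 0.11, adjusted p = 2.51e-07). Its values were 7.12, 7.65 and 8.25 after buffer and 8.01, 8.37 and 8.52 after TSLP, with some overlap. A dimmer probe set of the same gene changed by -0.32, so the direction for Il1rap holds for the brighter probe set only. Il18bp, the secreted protein that binds and neutralizes IL-18, rose without overlap, from 9.02, 9.11 and 9.43 to 9.48, 9.69 and 9.84, a change of 0.51 (adjusted p = 1.19e-05). Il18rap, the accessory chain of the IL-18 receptor, fell by 0.34 (adjusted p = 0.0278), and its dimmer probe set changed by 0.31. Il18r1 changed by -0.12 (adjusted p = 0.0964), and the decoy receptor Il1r2 by 0.12 (adjusted p = 0.679).

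Of the 5 receptor genes of the IL-10 group, 3 fell in OVA mice at 6 h after 1500 ng and none rose, against 35.9% of all genes lowered and 24.8% raised. Il10ra, the ligand-binding chain of the IL-10 receptor, had values of 8.68, 9.01 and 9.53 after buffer and 8.16, 8.41 and 8.80 after TSLP in OVA mice at 6 h. All 8 TSLP arrays lay below the buffer mean, with a narrow overlap. The change was -0.61 (SE 0.12, adjusted p = 4.1e-06), and -0.23 with the beta-actin covariate. The gene's 2 dimmer probe sets changed by -0.27 (adjusted p = 0.00119) and -0.16 (adjusted p = 0.0931). Of 6 measured B cell markers 3 fell in the same comparison (median change -0.28), with array means of 8.997 to 10.74 after buffer and 8.97 to 10.68 after TSLP. Other leukocyte markers went the other way: 4 of 9 T cell and all 7 dendritic cell markers rose. Of 5 NK cell markers 3 rose and 1 fell, and of 6 alveolar macrophage markers 2 rose and 1 fell. The part of these cells in the change of Il10ra was not tested. Il20rb, a chain of the receptors for IL-19, IL-20 and IL-24, went from 7.27, 7.53 and 8.71 after buffer to 6.96, 7.21 and 7.90, with wide overlap, a change of -0.45. Il22ra1, the epithelial chain of the IL-22 receptor, changed by -0.42, while the shared partner Il10rb was at -0.0041 (adjusted p = 0.944).

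**Figure D3:**
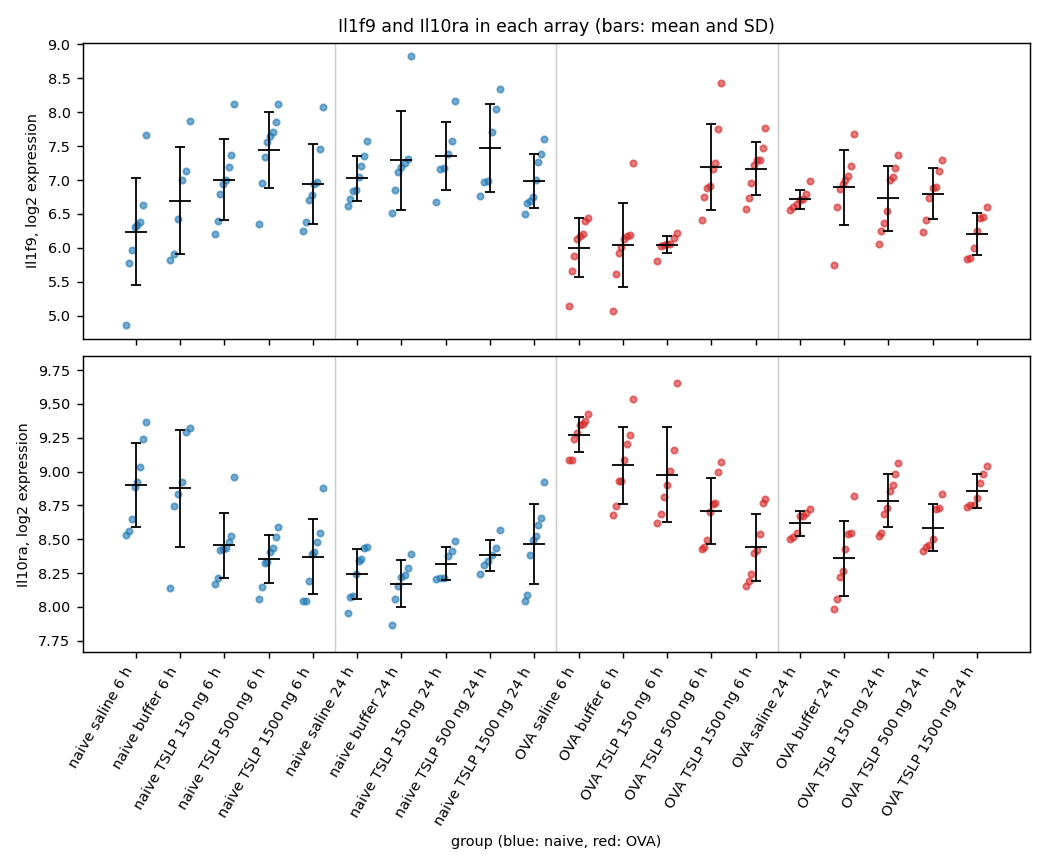
Log2 level of Il1f9 and Il10ra on every array of the 20 groups; points are animals and bars are the mean and SD. In OVA mice after 1500 ng Il1f9 is high at 6 h (median 7.25) and low at 24 h (median 6.25), and Il10ra is low at 6 h (median 8.41) and higher at 24 h (median 8.80).

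Of the IL-17 family, 2 of 4 receptor genes and 1 of 3 ligand genes fell in OVA mice at 6 h after 1500 ng, and none rose. Over all genes 35.9% fell and 24.8% rose. Il17rc, which pairs with Il17ra to bind IL-17A and IL-17F, went from 10.08, 10.41 and 10.73 after buffer to 9.80, 9.89 and 10.23 after TSLP, a change of -0.52 (adjusted p = 4.34e-10). Il17re, the epithelial receptor for IL-17C, went from 9.40, 9.49 and 10.06 to 9.02, 9.16 and 9.29 with no overlap, a change of -0.43 (adjusted p = 4.21e-05). Il17b changed by -0.21 (adjusted p = 0.0192), and by -0.17 (adjusted p = 0.0747) without the arrays with gullet keratins. The probe set used for Il17ra changed by -0.0062 (adjusted p = 0.952), but the gene's dimmer probe set by 0.59.

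The remaining calls at 6 h came from other families. Il34, another ligand of the macrophage growth factor receptor, rose from 7.504, 7.82 and 8.07 after buffer to 8.03, 8.31 and 8.54, with a narrow overlap. Its change was 0.49 (adjusted p = 7.73e-06) but was at 0.0062 with the beta-actin covariate. Il31ra, the receptor for the itch cytokine IL-31, rose by 0.39 (adjusted p = 0.00715), and both of its probe sets rose (0.39 and 0.35). Il6st, which encodes the shared signal transducer gp130, rose by 0.16 (adjusted p = 8.35e-06), and its 3 dimmer probe sets changed by 0.68, 1.12 and 1.74. Il3ra, the IL-3 receptor chain of basophils and dendritic cells, fell by 0.37 (adjusted p = 0.000223).

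At 24 h in OVA mice, 1500 ng of TSLP raised 8 of the 38 genes and lowered 6, against 21% of all genes raised and 17.5% lowered. The receptors Il10ra, Il17rc, Il17re, Il20rb and Il3ra, which had fallen at 6 h, were now higher than after buffer, and the IL-1 genes Il1f9 and Il1rap, which had risen, were lower. Il2ra, Il31ra and Il34 rose at both times. Of the 17 genes called at 6 h and the 14 called at 24 h, 10 were called at both, 7 of them in opposite directions. These are 26.3% and 18.4% of the 38 genes, and over all genes 26.9% were called at both times and 23.8% in opposite directions, so the share that turned is not above the background. Both times have their own buffer group, so the changes share no array.

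Il10ra rose by 0.50 at 24 h (SE 0.12, adjusted p = 0.000638), from 7.99, 8.35 and 8.82 after buffer to 8.74, 8.80 and 9.04 after TSLP. All 7 TSLP arrays were above the buffer mean, and the gene's 2 dimmer probe sets changed by 0.10 (adjusted p = 0.323) and 0.037 (adjusted p = 0.786). Il17rc rose by 0.40 with no overlap, from 9.74, 9.85 and 9.94 to 10.09, 10.28 and 10.44 (adjusted p = 5.84e-06). Il1rap fell with no overlap, from 8.22, 8.33 and 8.58 to 7.57, 7.98 and 8.08, a change of -0.48 (adjusted p = 0.000335). These Il1rap values are from the brighter of its 2 probe sets, which correlated at -0.19 over the arrays.

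Il3ra rose by 0.42 (adjusted p = 0.000149), Il20rb by 0.45 (adjusted p = 0.00314; 6.49, 6.91 and 8.02 after buffer, 7.26, 7.40 and 8.25 after TSLP) and Il17re by 0.30 (adjusted p = 0.00984). Il2ra rose by 0.67 (SE 0.18, adjusted p = 0.00154), from 7.32, 7.69 and 8.36 to 8.17, 8.58 and 8.69. Another 4 genes fell that had not been called at 6 h: Il7, a survival factor for lymphocytes, by 0.31 (adjusted p = 0.00225), Il18r1 by 0.30 (adjusted p = 0.000105), Il16, a chemoattractant for CD4+ cells, by 0.26 (adjusted p = 0.00858), and Il22ra2, the soluble protein that binds IL-22, by 0.43 (adjusted p = 0.0269). The values of Il22ra2 were 5.88, 6.37 and 6.75 after buffer and 5.44, 5.91 and 6.48 after TSLP, with overlap, and those of Il34 were 7.78, 7.96 and 8.38 and 8.04, 8.35 and 8.58.

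The call for Il1f9 at 24 h (-0.68, adjusted p = 0.0366) was lost without any one of OVA buffer 24 h replicates 1, 4, 5 and 6 or 1500 ng replicates 1, 3 and 6 (adjusted p = 0.0514 to 0.0970). That for Il22ra2 was lost without buffer replicate 2 or 5 or 1500 ng replicate 4, where the change was -0.35 (adjusted p = 0.0955). That for Il34 (0.28) was lost without buffer replicate 7 or 1500 ng replicate 2 or 8 (adjusted p = 0.0502 to 0.0659), and that for Il31ra (0.39) without buffer replicate 2, at 0.33 (adjusted p = 0.0510).

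The time difference itself was tested in OVA mice, as the 24 h change minus the 6 h change. It was called for 17 of the 38 genes, 10 towards a higher and 7 towards a lower change at 24 h, against 60.2% of all genes called. For Il1f9 it was -1.80 (adjusted p = 1.66e-05), for Il1r1 -1.17 (adjusted p = 2.81e-07), for Il10ra 1.10 (adjusted p = 1.19e-08) and for Il17rc 0.92 (adjusted p = 9.98e-14). For Il2ra it was -0.08 (adjusted p = 0.796). With the beta-actin covariate 9 of the 38 genes were called (23.4% of all genes), with Il10ra at 0.63, Il1r1 at -0.78 and Il17rc at 0.46, while Il1f9 was at -0.53 (adjusted p = 0.408).

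**Figure D4:**
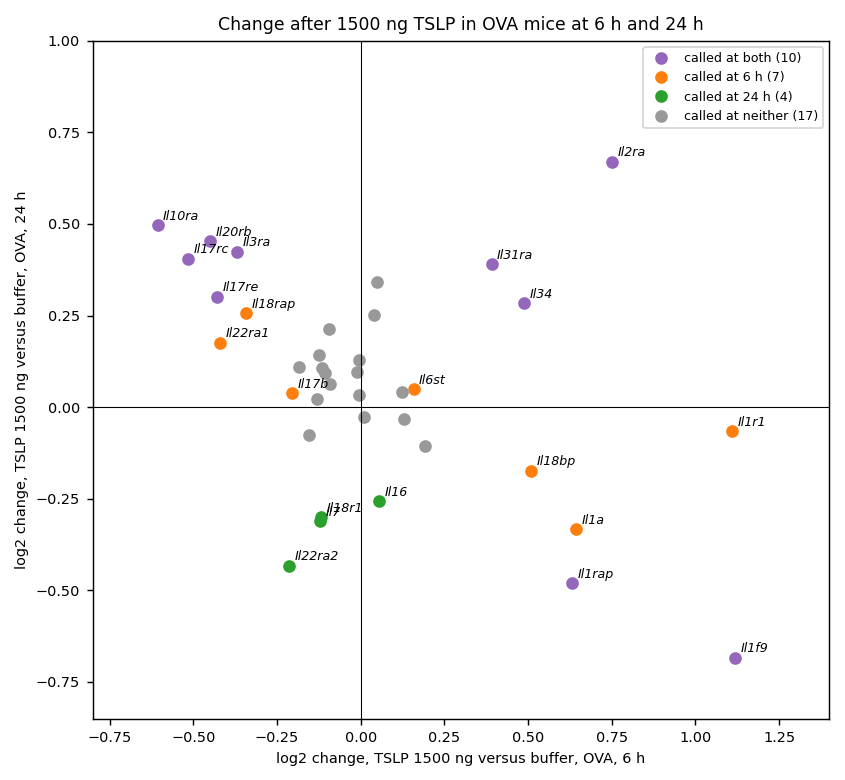
Change after 1500 ng of TSLP relative to buffer in OVA mice at 6 h (horizontal axis) and at 24 h (vertical axis), both on the log2 scale, with 1 point per gene and colour for genes called at both times, at 1 time or at neither. Il2ra lies at 0.75 and 0.67, Il1f9 at 1.12 and -0.68, and Il10ra at -0.61 and 0.50.

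A score of circadian clock genes differed between these 24 h groups, with a mean of -0.32 after buffer and 1.98 after 1500 ng. With the score as a covariate, an alternative chosen after seeing the data, 16 of the 38 genes were called at 24 h, 13 up and 3 down, and 10 of them were among the 14 above, against 36% of all genes called. Il2ra was then at 0.91. Fat tissue markers were also lower after TSLP (4 of 4, median change -2.31), and B cell markers higher (4 of 6). Of the T cell markers 3 of 9 rose, as did 3 of 4 group 2 innate lymphoid and Th2 markers, while 4 of 8 endothelium markers fell and 1 rose, and 3 of 6 fibroblast and smooth muscle markers fell. The beta-actin measure was 0.32 higher after TSLP (exact permutation test, two-sided, adjusted p = 0.000622), and with it as a covariate 13 of the 14 genes were called (32.7% of all genes). Whether these have a part in the interleukin changes was not tested.

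The choice of control changed some of the 24 h results. Against saline in place of buffer, 4 of the 38 genes rose and 7 fell in OVA mice at 24 h, against 29.2% of all genes called. Il17rc (0.49), Il17re (0.39), Il20rb (0.53) and Il3ra (0.37) rose against saline as well. Il2ra changed by 0.19 (adjusted p = 0.480) and Il10ra by 0.24 (adjusted p = 0.150) against saline. The 2 comparisons share the TSLP arrays. Buffer itself changed Il2ra by -0.48 relative to saline (adjusted p = 0.170).

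At 6 h in OVA mice, against saline, 9 genes rose and 8 fell, against 62.1% of all genes called, with Il1r1 at 0.92, Il2ra at 0.46, Il1f9 at 1.16 and Il10ra at -0.83. With the beta-actin covariate 6 were called (19.1% of all genes), Il1r1 (0.64) and Il10ra (-0.49) among them. Buffer and saline were compared directly in 4 settings. None of the 38 genes was called in OVA mice at 6 h or in naive mice at 24 h (limma; 6 and 2 had an unadjusted p under 0.05), against 0.356% and 0.00741% of all genes, and Il1rl2, the IL-36 receptor, was called in OVA mice at 24 h (-0.25, adjusted p = 0.0378), where 7 genes had an unadjusted p under 0.05, against 0.882%. In naive mice at 6 h Il34 (0.41, adjusted p = 0.00387) and Il6ra (0.23, adjusted p = 0.0159) were higher after buffer, against 14.9% of all genes.

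In naive mice at 6 h, 1500 ng of TSLP lowered 2 of the 38 genes and raised none, against 9.82% of all genes lowered and 5.53% raised. Il10ra had values of 8.14, 8.88 and 9.32 after buffer and 8.04, 8.40 and 8.88 after TSLP, a change of -0.50 (SE 0.13, adjusted p = 0.00412). The gene's 2 dimmer probe sets moved the other way and were not called, at 0.085 (adjusted p = 0.507) and 0.17 (adjusted p = 0.195). The change of the probe set used was -0.70 without the arrays with gullet keratins, and neither gene was called with the beta-actin covariate. Il17rc changed by -0.23 (adjusted p = 0.0303), and its call was lost without any one of naive buffer 6 h replicates 2, 4 and 5 or naive 1500 ng 6 h replicates 1, 2 and 4 (adjusted p = 0.0547 to 0.116). Il1r1 was at 0.02 (adjusted p = 0.938), from 8.54, 8.86 and 9.24 to 8.10, 8.91 and 9.28.

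The lower doses gave more calls in naive mice at 6 h than the highest, 5 and 9 against 2, and with the beta-actin covariate the counts were 0, 2 and 0. At 150 ng, Il1r1 (0.48) and Il1rap (0.38) rose and Il10ra (-0.42), Il17rc (-0.21) and Il6ra (-0.18) fell, against 27.2% of all genes called. At 500 ng, Il1r1 (0.53), Il1rap (0.54), Il1f9 (0.75) and Il17rd (0.22) rose and Il10ra (-0.52), Il20rb (-0.52), Il17rc (-0.35), Il17re (-0.25) and Il6ra (-0.17) fell, against 42.1%. These dose comparisons share the same buffer arrays. In the fit with that covariate 8 and 6 genes had an unadjusted p under 0.05 at 150 and 1500 ng (limma; 12.1% and 4.66% of all genes called), and at 500 ng only Il1rap (0.40) and Il20rb (-0.46) were called (15.4%). Without the arrays with gullet keratins Il17rd at 500 ng was at 0.19 (adjusted p = 0.0608). Against saline, 1500 ng raised 7 and lowered 4 in naive mice at 6 h (42.8% of all genes called), with Il1r1 at 0.37 (adjusted p = 0.025) and Il1f9 at 0.71 (adjusted p = 0.0223). With the beta-actin covariate that comparison held 2 calls, Il15ra (0.27) and Il7 (-0.29), against 5.66% of all genes.

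In naive mice at 24 h none of the 38 genes was called by limma at any dose, while 4, 3 and 6 had an unadjusted p under 0.05 at 150, 500 and 1500 ng. The shares of all genes called were 0.215% at 150 ng and 0% at 500 ng. At 1500 ng 0.608% of genes rose and 0.371% fell, and against saline 0.793% were called. Il2ra did not overlap between buffer (6.84, 7.16 and 7.29) and 1500 ng (7.30, 7.47 and 7.62), but its change of 0.36 did not pass the adjustment (adjusted p = 0.329).

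The TSLP effect at 6 h was compared between OVA and naive mice by their difference in the same fit. It was called for 9 of the 38 genes, 4 with a more positive and 5 with a more negative effect in OVA mice, against 31.8% of all genes. Il1r1 had the largest difference, at 1.09 (SE 0.21, adjusted p = 3.81e-05), and it was 0.89 (adjusted p = 0.00477) with the beta-actin covariate and 1.01 without the arrays with gullet keratins. Against saline in place of buffer it was 0.55 (adjusted p = 0.0673). Il1a (0.60), Il1rap (0.47) and Il34 (0.37) were also more positive, and Il17re (-0.49), Il22ra1 (-0.35), Il17rd (-0.31), Il17rc (-0.29) and Il12rb1 (-0.28) more negative. For Il2ra the difference was 0.52 (adjusted p = 0.104) and for Il10ra -0.10 (adjusted p = 0.682). Of the 9 calls, Il1r1 and Il17rd were called with the beta-actin covariate, and Il1r1, Il1a and Il17re without the arrays with gullet keratins. Against saline none of the 4 positive differences was called, with Il1rap at 0.44 (adjusted p = 0.0576), Il1a at 0.13 (adjusted p = 0.771) and Il34 at 0.020 (adjusted p = 0.945), and Il17re and Il22ra1 were the 2 calls, against 7.28% of all genes.

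Several of these calls depended on single arrays. That for Il17rc was lost without naive buffer 6 h replicate 6 (-0.22, adjusted p = 0.112), OVA buffer 6 h replicate 6 or 7, or naive 1500 ng 6 h replicate 5, and that for Il1rap without naive buffer 6 h replicate 6 (0.41, adjusted p = 0.0558) or OVA buffer 6 h replicate 6. That for Il22ra1 was lost without naive buffer 6 h replicate 2 or 4, OVA buffer 6 h replicate 6 or 7, or naive 1500 ng 6 h replicate 5 (adjusted p = 0.0613 to 0.0871). At 24 h only Il1rap differed (-0.51, adjusted p = 0.0448), against 4.42% of all genes, and most of the fits that left out 1 array lost that call (adjusted p up to 0.134, without naive buffer 24 h replicate 5).

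In OVA mice at 6 h more of the 38 genes were called at 500 and 1500 ng than at 150 ng. At 150 ng none of the 38 genes was called (limma; 6 had an unadjusted p under 0.05), against 0.163% of all genes. At 500 ng 9 rose and 6 fell, against 41%, with Il1f9 at 1.15, Il1a at 0.87, Il1r1 at 0.84 and Il2ra at 0.62. The slope over the 3 TSLP doses, in log2 units per 10-fold dose, was called for 13 genes, 6 up and 7 down, against 50.4% of all genes: it was 1.13 for Il1f9, 0.79 for Il1r1, 0.63 for Il1rap, -0.54 for Il10ra and -0.52 for Il17re. For Il2ra it was 0.38 (adjusted p = 0.0681). With the beta-actin covariate 3 slopes were called (7.09% of all genes), those of Il1r1 (0.54), Il1rap (0.42) and Il17re (-0.43), and at 500 ng 7 genes (7.99%), all higher, with Il1a at 0.79, Il1r1 at 0.65 and Il2ra at 0.60 among them.

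At 24 h in OVA mice the lower doses raised 5 genes (150 ng, against 10.5% of all genes called) and 6 genes (500 ng, against 11.8%) and lowered none. Il2ra was at 0.63, 0.60 and 0.67 over the 3 doses, each called, and the 3 comparisons share 1 buffer group. Against saline none of the 38 genes was called at 150 or 500 ng (limma; 4 at each dose had an unadjusted p under 0.05), against 0.0148% and 0.311% of all genes, and Il2ra was at 0.15, 0.11 and 0.19. Il27ra, the receptor for IL-27, rose at 150 ng (0.48) and 500 ng (0.51) and Il18rap at both (0.46 and 0.41), while at 1500 ng they were at 0.25 (adjusted p = 0.133) and 0.26 (adjusted p = 0.155). The slope was called for 7 genes, 1 up (Il17rc, 0.29) and 6 down, against 15% of all genes. No slope was called in naive mice at either time (limma; 2 at 6 h and 4 at 24 h had an unadjusted p under 0.05), against 0.17% and 0.452% of all genes.

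OVA and naive mice were compared within saline, buffer and 1500 ng of TSLP at each time, 6 comparisons that share no array. Il2ra was higher in OVA mice in 6 of 6, by 0.52 to 1.04. At 24 h after saline its values were 6.91, 7.28 and 7.49 in naive and 7.89, 8.43 and 8.53 in OVA mice, with no overlap and a difference of 1.01 (SE 0.18, adjusted p = 2.4e-06). At 24 h after buffer they were 6.84, 7.16 and 7.29 against 7.32, 7.69 and 8.36, again without overlap, a difference of 0.67 (adjusted p = 0.0086).

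At 6 h after buffer the difference in Il2ra was 0.52 (adjusted p = 0.0226), and the call was lost without naive buffer replicate 4 (0.45, adjusted p = 0.0611) or 7 (0.48, adjusted p = 0.0520), without OVA buffer replicate 8 (0.39, adjusted p = 0.0937), and in the fit without the arrays with gullet keratins. All 6 differences were called with the beta-actin covariate. None of the 9 T cell markers was called between OVA and naive mice after buffer at either time (limma, with 0 at 6 h and 1 at 24 h at an unadjusted p under 0.05). At 24 h after saline their mean per array ran from 8.77 to 9.49 (median 9.06) in naive mice. In OVA mice it ran from 9.46 to 9.94 (median 9.70). The naive and OVA medians were 9.49 and 9.55 after saline at 6 h. After 1500 ng they were 8.97 and 9.41 at 6 h and 9.16 and 9.41 at 24 h. The part of T cells in the difference in Il2ra was not tested.

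Il17rd, a receptor-like protein that also restrains growth factor signalling, was lower in OVA mice in 5 of 6 comparisons. At 24 h after buffer its values were 9.67, 9.77 and 9.91 in naive and 9.04, 9.34 and 9.66 in OVA mice, without overlap, a difference of -0.44 (SE 0.07, adjusted p = 1.12e-05). The exception was buffer at 6 h, with -0.11 (adjusted p = 0.282). Il12a, the p35 subunit of IL-12, was lower in 4 of 6, for example by 0.49 at 6 h after buffer (adjusted p = 0.000222), where its values were 7.17, 7.47 and 7.80 in naive and 6.70, 6.82 and 7.40 in OVA mice. Il22ra2 was lower in 4 of 6 and Il16 in 3, and Il10ra, Il12rb1, Il1rl2 and Il31ra were higher in 3. Il17re changed direction, being higher in 1 and lower in 2, with differences from -0.44 to 0.26.

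**Figure D5:**
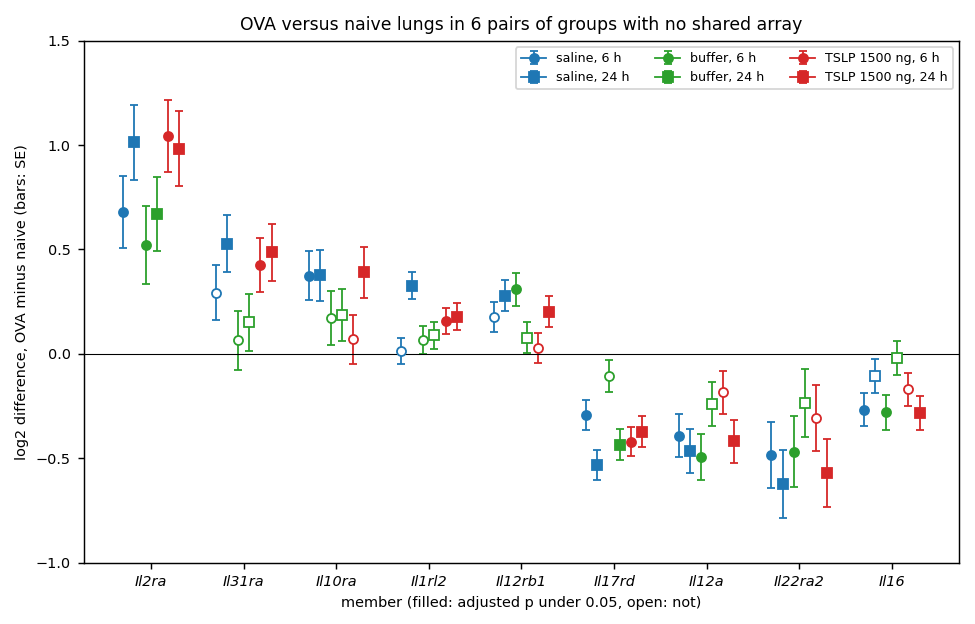
Difference between OVA and naive mice on the log2 scale, in saline, buffer and 1500 ng groups at 6 and 24 h. The genes are those called in the same direction in at least 3 of the 6 comparisons. Il17re, called higher in 1 and lower in 2, is not drawn. Bars are standard errors of the limma fit and filled points have an adjusted p under 0.05. All 6 points of Il2ra lie between 0.52 and 1.04, and 5 of 6 points of Il17rd are filled and below 0.

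By comparison, after buffer at 6 h 4 of the 38 genes were higher in OVA mice and 6 lower, against 15.7% and 18% of all genes, and at 24 h 1 was higher and 1 lower, against 5.03% and 3.53%. After saline 3 were higher and 6 lower at 6 h (23.5% of all genes called), and 8 and 6 at 24 h (30.3%). After 1500 ng 8 were higher and 6 lower at 6 h (44.2%), and 10 and 9 at 24 h (42.5%). Of the 38 genes, 4 (10.5%) were higher in one comparison and lower in another and 7 (18.4%) were never called, against 6.3% and 22% of all genes; 2.62% of all genes were higher in 6 of 6, as Il2ra was.

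The differences after buffer at 6 h moved with other measures. The beta-actin measure was 0.44 higher in OVA than in naive mice (exact permutation test, two-sided, adjusted p = 0.0142), and 8 of the 38 genes were called with it as a covariate, against 23.8% of all genes. Of 8 endothelium markers 7 were lower in OVA mice, as were 3 of 6 neutrophil and 3 of 4 fat tissue markers. Il1a was at -0.60 (adjusted p = 0.00398), and without OVA buffer replicate 3 it was at -0.35 (adjusted p = 0.0641). Il34 was lower by 0.46 (adjusted p = 0.000352), and the calls for Il22ra2 (-0.47), Il22ra1 (0.29) and Il10rb (-0.14) were each lost without at least 1 array. For Il22ra2 these were naive buffer replicate 2 and OVA buffer replicates 1, 3 and 6, for Il22ra1 OVA buffer replicate 6 (0.23), and for Il10rb OVA buffer replicate 4 (-0.11). The call for Il22ra1 was also lost in the fit without the arrays with gullet keratins. The part of these measures in the differences was not tested further.

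The 2 times were compared in the control groups, where no TSLP was given. Il1r1 was higher at 24 h than at 6 h in all 4 comparisons (naive and OVA, saline and buffer), by 0.48 to 1.05, and Il1rap by 0.39 to 0.74. In OVA mice after buffer Il1r1 was at 8.32, 8.45 and 8.98 at 6 h and at 9.36, 9.57 and 9.83 at 24 h, with no overlap. Il10ra, Il15ra, Il17rc, Il18rap and Il20rb were lower at 24 h in all 4, and Il10ra fell by 0.66 to 0.70. Over all genes 13.6% were higher and 22.8% lower in all 4. At 24 h Il1r1 in OVA mice was thus in the same range after buffer and after 1500 ng (9.29, 9.59 and 9.67), and its TSLP change was -0.07 (adjusted p = 0.755).

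The counts were 6 up and 11 down in naive saline mice (61.2% of all genes called), 4 and 12 in naive buffer mice (49.9%), 6 and 10 in OVA saline mice (61%) and 5 and 15 in OVA buffer mice (61.8%). The beta-actin measure was 1.04 and 1.18 lower at 24 h in the naive and OVA saline groups (exact permutation tests, two-sided, adjusted p = 0.000622 each). With it as a covariate Il1r1 and Il1rap were called in 3 of 4 comparisons, Il10ra, Il17rc and Il20rb in 2, Il15ra in 1 and Il18rap in 0. The clock score averaged 2.67 to 4.14 in the 6 h groups and -0.32 to 2.04 in the 24 h groups. In naive mice the effect of 1500 ng differed between the times for Il10ra (0.80, adjusted p = 0.000968) and Il17rc (0.32, adjusted p = 0.0242), against 17.1% of all genes; neither was called with the beta-actin covariate (0.55 and 0.085).

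A list of 42 genes that act beside the interleukin receptors (shared receptor chains, JAK kinases, STAT factors, their feedback inhibitors and related cytokines) had 35 measured members. In OVA mice at 6 h 1500 ng of TSLP raised 12 and lowered 10 of them, 22 of 35 in all, against 24.8% of all genes raised and 35.9% lowered. Cish (0.86) and Socs2 (0.53), feedback inhibitors that STAT5 induces, rose with Stat5a (0.38), Stat2 (0.63) and Jak1 (0.46), while Jak3 (-0.62), Stat6 (-0.38) and Csf2 (-0.84) fell. These changes are given without the beta-actin covariate, with which 7.72% of all genes were called in this comparison. The beta-actin measure was 1.31 lower after TSLP here, and its part in the changes of these genes was not tested. At 24 h 9 of the 35 rose and 1 fell, against 21% of all genes raised and 17.5% lowered. Cish was at 0.61, Socs2 at 0.45, Jak3 at 0.59 and the IL-6 family cytokine Osm at 0.56. In naive mice 2 rose and 1 fell at 6 h, against 5.53% of all genes raised and 9.82% lowered. None was called by limma in naive mice at 24 h, where 1 had an unadjusted p under 0.05, against 0.608% raised and 0.371% lowered. Between OVA and naive mice after buffer, 2 of the 35 were higher and 1 lower at 6 h, against 15.7% and 18% of all genes. At 24 h 5 were higher and 1 lower, against 5.03% and 3.53%. The 5 were Cish (0.63), Bcl3 (0.60), Csf2ra (0.40), Csf2rb (0.34) and Stat3 (0.21).

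Of the 38 genes, 13 (34.2%, against 17.4% of all genes) were called in none of the 6 main comparisons (1500 ng against buffer and OVA against naive after buffer). They include the ligands Il15, Il17a, Il17d, Il12b and Il23a, the receptor chains Il15ra, Il17ra, Il21r, Il27ra, Il2rb and Il6ra, and Il1r2 and Il1rl2. Il17a, the product of Th17 and gamma delta T cells, ran from 5.36 through 5.54 to 5.91 after buffer in OVA mice at 6 h and from 5.24 through 5.43 to 5.78 after 1500 ng, a change of -0.12 (adjusted p = 0.265). Il23a, the IL-23 subunit, changed by -0.11 (adjusted p = 0.332) in the same comparison and Il12b, the subunit that IL-12 and IL-23 share, by 0.010 (adjusted p = 0.919). By mean level Il17a, Il23a and Il12b lie at percentiles 0.72, 2.0 and 5.2 of all genes. At such dim levels the lack of a call cannot tell no change from a signal too weak to show one. Il12b and Il17ra were called in none of the 38 comparisons fitted. For Il6ra, Il15ra and Il17ra a dimmer probe set rose in OVA mice at 6 h (0.56, 0.57 and 0.59) where the probe set used was at -0.09, -0.012 and -0.0062.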

How the data were processed

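The authors deposited log2 expression values, which came from RMA according to the submitters' processing notes. Per the labels' protocols, RNA came from a mirVana extraction, passed at an integrity number over 6, and 100 ng of it was labelled by the 3'IVT Express method. The sources used here do not give the RMA version or a filter on probe sets. Values ran from 2.96 to 15.11 over 26166 probe sets, and array medians lay between 8.97 and 9.16; there are no counts, so the number of arrays limits the precision. No 2 arrays were identical. In the platform annotation 22892 probe sets named 1 gene (22834 of them in RefSeq), 260 several and 3014 none, and only the first kind was used, with the probe set of highest mean for each gene.

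limma 3.58.1 (R 4.3.3) fitted the 20 group means with an empirical Bayes variance (residual df 129, prior df 2.875). Two-sided p-values of 38 comparisons were each adjusted over 13494 genes (Benjamini-Hochberg, 0.05), and "called" means past that threshold. The fit was tested on simulated data. The genes and all lists were chosen with earlier results of these data known. The text names, for each of the 6 main comparisons, up to 8 called rises and 6 called falls by size of change, for the others up to 4 and 4, and from each family the gene with the smallest p, and it describes in full the 12 genes with the largest called changes; other genes and values it names were chosen after their values were seen. Alternatives covered the probe set, dim genes, scaling, array weights, the prior, the samples fitted, the beta-actin measure, gullet keratins, the reference group, the replicate number and each array left out; a clock score as covariate was added after seeing the data.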

Additional observations from a re-analysis of the deposited data

Results flagged for a closer look

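Each group of 12 of the genes was screened for a single array far from the others, 240 groups in all. In these, 20 values stood out, some of them on the same array. Such a screen marks about 1 group in 20 by chance, and 6 of the 20 lay on arrays with gullet keratins. No explanation was tested.

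Il22ra2 stood out 4 times, always high: 7.40 on OVA buffer 6 h replicate 7 (others 5.57 to 6.21), 7.45 on naive 150 ng 6 h replicate 5 (others 6.41 to 6.90), 7.03 on naive saline 6 h replicate 8 (others 6.15 to 6.53) and 6.65 on OVA 150 ng 24 h replicate 7 (others 5.62 to 6.10). Of these, the arrays of OVA buffer 6 h replicate 7 and naive 150 ng 6 h replicate 5 carry gullet keratins. The array of OVA 1500 ng 6 h replicate 7, which also carries gullet keratins, was high for Il12a (7.76, others 6.85 to 7.25), Il17rc (10.23, others 9.80 to 9.92) and Il20rb (7.90, others 6.96 to 7.28). Il1f9 was at 8.82 on naive buffer 24 h replicate 8 (others 6.51 to 7.31), which carries them too.

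Il1a was low on OVA buffer 6 h replicate 3 (5.65, others 7.38 to 7.85) and OVA buffer 24 h replicate 2 (6.39, others 7.73 to 7.96), and high on OVA 150 ng 6 h replicate 5 (7.99, others 7.59 to 7.76). Il18bp was low on OVA buffer 24 h replicate 2 (8.89, others 9.24 to 9.53) and naive saline 24 h replicate 3 (8.85, others 9.08 to 9.26), and high on OVA 150 ng 6 h replicate 7 (9.91, others 9.01 to 9.36). Il1rap was low on OVA 500 ng 24 h replicate 8 (7.75, others 8.12 to 8.38) and naive buffer 24 h replicate 5 (7.69, others 8.25 to 8.52). Il20rb was high on OVA 1500 ng 24 h replicate 1 (8.25, others 7.26 to 7.56), Il10ra on naive 150 ng 6 h replicate 6 (8.96, others 8.17 to 8.52) and Il2ra on naive 500 ng 6 h replicate 8 (8.46, others 7.25 to 7.66). Il12a was low on naive saline 6 h replicate 6 (6.63, others 7.13 to 7.55).

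The effect of 1500 ng of TSLP at 6 h differed between OVA and naive mice, tested in the limma fit, for Il1r1 (1.09), Il1a (0.60), Il1rap (0.47), Il34 (0.37), Il12rb1 (-0.28), Il17rc (-0.29), Il17rd (-0.31), Il22ra1 (-0.35) and Il17re (-0.49), and at 24 h for Il1rap (-0.51). It differed between 24 h and 6 h in naive mice for Il10ra (0.80) and Il17rc (0.32). In OVA mice it was lower at 24 h for Il1f9 (-1.80), Il1r1 (-1.17), Il1rap (-1.11), Il1a (-0.98), Il18bp (-0.68), Il16 (-0.31) and Il6st (-0.11). It was higher at 24 h for Il10ra (1.10), Il17rc (0.92), Il20rb (0.90), Il3ra (0.79), Il17re (0.73), Il18rap (0.60), Il22ra1 (0.60), Il21r (0.30), Il17d (0.29) and Il12rb1 (0.27).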

How the results depend on the processing

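Counts of the 38 genes called are given here where an alternative moved them by more than 1.5 times. The main counts for 1500 ng of TSLP were 2 and 0 in naive mice and 17 and 14 in OVA mice at 6 and 24 h, those for OVA against naive mice after buffer 10 and 2, and those for the difference of the TSLP effect 9 and 1. Without the dimmest 40% of genes, which left 15 of the 38 to test, they were 1 (naive 6 h), 7 (OVA 6 h), 5 (OVA 24 h), 2 and 1 (OVA against naive) and 4 (difference, 6 h). With the beta-actin covariate they were 0 (naive 6 h), 2 (OVA 6 h) and 2 and 2 (difference, 6 and 24 h). With saline as the reference they were 11 (naive 6 h), 14 (OVA against naive, 24 h) and 2 and 2 (difference, 6 and 24 h), and Il17b in OVA against naive mice at 6 h was -0.036 (adjusted p = 0.789) in place of 0.28. With only the groups compared in the fit they were 0 and 1 (naive 6 and 24 h), 4 (OVA against naive, 6 h) and 3 (difference, 6 h). Without the arrays with gullet keratins they were 5 (naive 6 h) and 5 (difference, 6 h). Array weights gave 4 (OVA against naive, 24 h) and 5 and 10 (difference, 6 and 24 h), and for the difference at 24 h quantile normalization gave 2, the mean of probe sets 0 and the replicate block 0.

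The deviations of same-numbered arrays correlated from -0.516 to 0.821, not above 0.1 for every pair, so the numbers were not taken to pair animals, and at most 2 arrays of a comparison correlated best with their own number. With the replicate number as a block the counts were 2, 0, 17, 14, 10, 2, 9 and 0, and 1 of 50 single changes lost its call. With 1 array left out at a time the counts ran from 1 to 3 and 0 to 0 in naive mice, from 15 to 20 and 12 to 18 in OVA mice, from 8 to 11 and 2 to 2 for OVA against naive mice, and from 5 to 11 and 0 to 2 for the difference. The cause of these shifts was not tested, apart from the fewer genes tested without the dimmest 40%.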
